A study of Mus musculus with 24 samples.

Results

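β-Aminopropionitrile (BAPN) was compared with plain water in the aorta of wild type (WT) mice, in 13 of the 24 libraries of the series. The members are the 7 libraries labelled WT-BAPN and the 6 labelled WT, chosen by the labels for genotype and treatment and by no measured value. All mice were male and were housed individually. The WT-BAPN mice drank BAPN at 0.5% (w/v) for 28 days from an age of 3 weeks, and the WT mice, whose treatment label is Vehicle, drank regular water. Each library holds polyadenylated RNA of aortic tissue between the ascending part and the bifurcation in the abdomen, so that media, adventitia, endothelium and all segments are mixed. In such bulk samples fewer cells of a type and less RNA per cell cannot be told apart. The sources used here do not give the strain, whether an aneurysm or dissection was present in a given mouse, or the time of tissue collection. The other 11 libraries are from ATAD3A knock-in mice, 5 on plain water and 6 on BAPN. They enter no group mean of this comparison, but share in the gene filter, the scaling and the estimate of the spread.

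BAPN inactivates lysyl oxidase and its relatives, copper enzymes that oxidise lysines of collagen and elastin so that the chains cross-link into fibres. In young rodents the loss of cross-links weakens the aortic wall, and BAPN in drinking water is used as a model of aortic aneurysm and dissection. Smooth muscle cells of the media make most of the elastin and much of the collagen of the wall during growth, keep a contractile programme in the adult vessel, and can re-enter the cell cycle and lower contractile genes after injury.

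The 13 libraries held 13127645 to 25725459 counts, of which 6.67 to 13.9% in WT and 4.24 to 12.8% in WT-BAPN came from mitochondrially encoded genes. Levels are given as CPM, counts relative to the library total scaled with TMM factors. The smooth muscle markers Acta2 (4198 to 39695 CPM in WT, 9005 to 31546 CPM in WT-BAPN) and Myh11 (2521 to 10205 CPM in WT, 2978 to 7430 CPM in WT-BAPN) were abundant in every library. Atad3a, the gene altered in the knock-in mice, lay at 30.2 to 61.4 CPM in WT and 24.9 to 44.8 CPM in WT-BAPN, with groups that overlapped.

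One WT library stood apart before any comparison. WT replicate 5 had the lowest Acta2 and Myh11 of the group, at 4198 and 2521 CPM, and held RNA of other tissues: the airway gene Bpifa1 at 9680 CPM against 1.57 to 41.3 CPM in the remaining 5 WT libraries, the skeletal muscle actin Acta1 at 1976 CPM against 0.342 to 4.79 CPM, and the B cell receptor gene Cd79b at 135 CPM against 0 to 3.37 CPM. A gene is therefore said to rise or fall on BAPN only where edgeR called it in both the fit of all libraries and the fit without this one, in one direction, at an adjusted p under 0.05. Where a gene has a single value, it is from the fit of all libraries, and where a list has a pair of medians, the later is from the fit without WT replicate 5.

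With all libraries edgeR called 873 of 14216 genes (6.14%), 489 higher on BAPN (3.44%) and 384 lower (2.70%). Without WT replicate 5 it called 1107 of 14098 genes (7.85%), 689 higher (4.89%) and 418 lower (2.96%). Both fits called 651 genes in one direction (4.62%), 411 higher (2.92%) and 240 lower (1.70%), and these shares are the background for the counts called in both fits below. At an unadjusted p under 0.05 edgeR had 3550 of 14216 genes in either direction, and 3832 of 14098 without WT replicate 5. With all libraries DESeq2 called 796 genes higher and 697 lower of 13930. The limma voom fit, run with a quality weight for each library, called 2080 and 2154 of 14216. Counts below at an unadjusted p or from these tools are to be set against these. Of the 873 genes 652 were still called without WT replicate 5, 651 of them in the same direction. That left 222 of the 873 and 456 of the 1107 not called in both fits in one direction. The median log2 change over all genes tested was -0.04 with all libraries and 0.04 without WT replicate 5. Every WT-BAPN library lay above every WT library for 178 genes (1.25%) and below every one for 124 (0.872%), and with WT replicate 5 set aside for 419 (2.95%) and 339 (2.38%). Fits that each left out 1 of the 13 libraries called between 327 and 1609 genes, and 222 genes (1.56%) were called in all of them and in the fit of all libraries, 140 higher (0.985%) and 82 lower (0.577%). That last criterion was chosen after the data were seen.

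**Figure D1:**
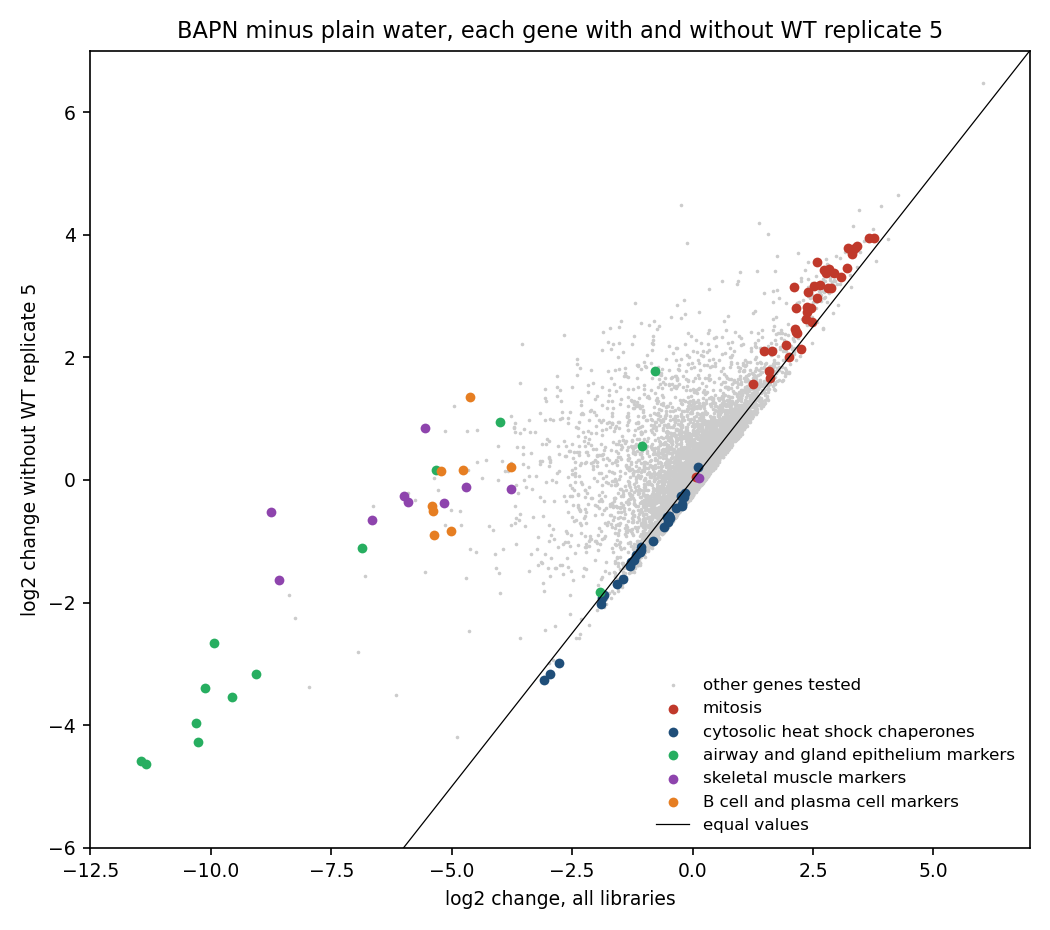
Log2 change on BAPN of each of 14098 genes, with all libraries on the x axis and without WT replicate 5 on the y axis, with 5 gene lists coloured. Mitosis genes lie at positive and heat shock chaperones mostly at negative values on both axes, while most airway, skeletal muscle and B cell markers lie far to the left of the line of equal values.

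Of 53 gene lists, that of mitosis genes had the largest count and share of members called in both fits. Most mitosis genes and part of the collagen genes rose on BAPN, and part of the heat shock chaperones and ribosome biogenesis factors and a few contractile genes fell. Neither the respiratory chain nor macrophage and interferon lists had a member called in either fit.

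**Figure D2:**
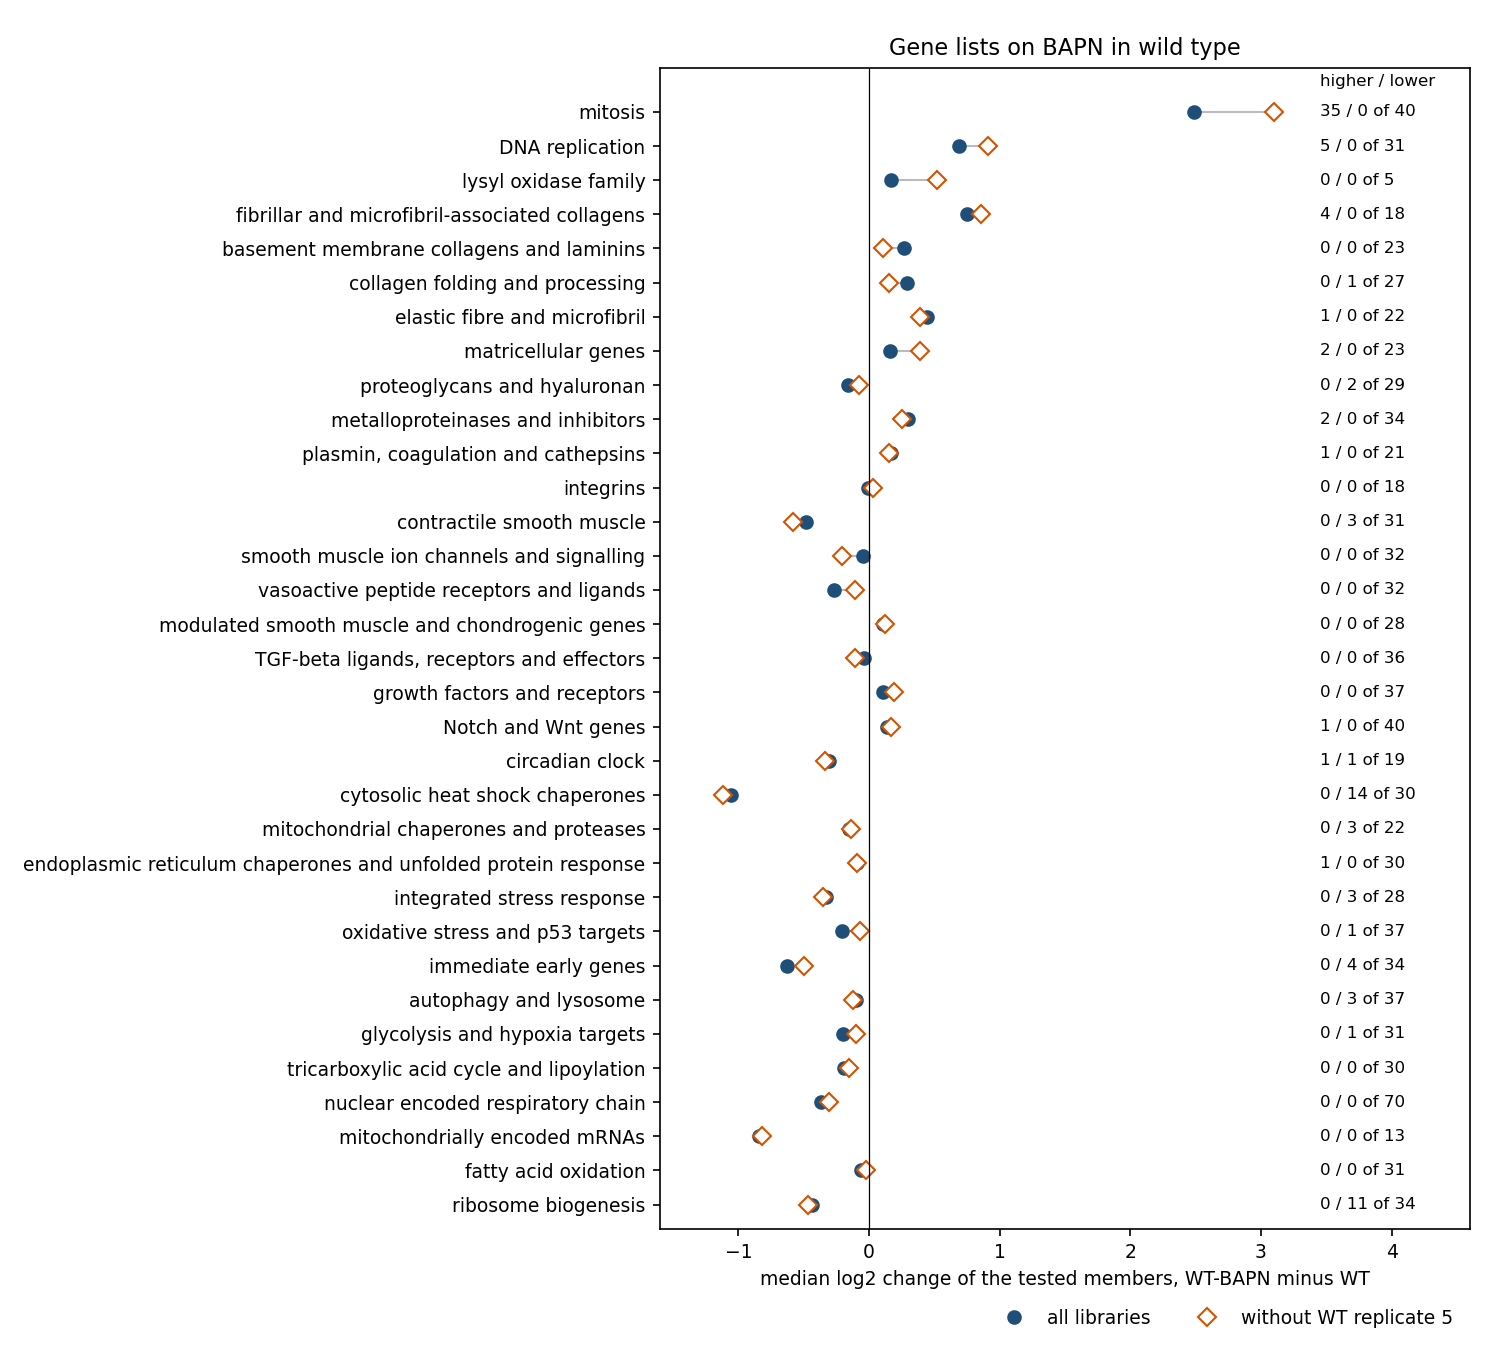
Median log2 change on BAPN of the tested members of 33 gene lists, with all libraries (filled circles) and without WT replicate 5 (open diamonds). The figures at the right count the members called higher and lower in both fits, of those tested: 35 of 40 mitosis genes higher, 14 of 30 heat shock chaperones and 11 of 34 ribosome biogenesis factors lower.

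Genes of mitosis rose on BAPN more widely than any other list. Of 40 tested, 35 rose and none fell, against 2.92% of all genes called higher in both fits, and the median log2 change was 2.49 with all libraries and 3.1 without WT replicate 5. The number called higher depended on single libraries: it was 39 without WT replicate 5, but 13 without WT replicate 1, 16 without WT replicate 4, 19 without WT-BAPN replicate 5, 21 without WT replicate 6 and 23 without WT replicate 3. The 40 values ran from 0.08 for Anln to 3.77 for Pbk. Among the 35, WT-BAPN replicate 7 was the highest of its group for 34 and WT-BAPN replicate 1 the lowest for 33, while WT replicate 5 was the highest WT library for 33. The list score, the mean log2 CPM of its genes, was 0.1 to 0.63 in WT replicates 1 to 4 and 6 and 1.73 in WT replicate 5. In WT-BAPN it ran from 0.76 in replicate 1 to 4.75 in replicate 7. WT replicate 5 also had the highest B cell score and T and NK cell score of the 13 libraries, at 6.39 and 4.69, and the part of these cells in its mitosis score was not tested.

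Cdk1, Ube2c and Top2a stand for this list here, as a kinase, a ubiquitin enzyme and a DNA topoisomerase that act at mitosis. The 250 bases before their start sites are printed to show 2 motifs known from promoters of cell cycle genes. Capitals mark the cell cycle gene homology region (CHR, TTTGAA or TTCAAA) and the CCAAT box (CCAAT or ATTGG), searched on both strands, with overlapping matches counted. The sequences are from RefSeq for GRCm38.p6, 5′ to 3′ on the strand of the gene, and were narrowed from a longer set of candidates after the matches were seen.
Cdk1, chr10:69352913-69353162, reverse strand: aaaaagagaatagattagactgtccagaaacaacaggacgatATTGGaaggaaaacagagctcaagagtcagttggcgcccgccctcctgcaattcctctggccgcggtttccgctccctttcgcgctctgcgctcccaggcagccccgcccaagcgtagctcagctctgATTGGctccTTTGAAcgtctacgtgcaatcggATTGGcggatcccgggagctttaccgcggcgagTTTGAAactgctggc
Ube2c, chr2:164769679-164769928, forward strand: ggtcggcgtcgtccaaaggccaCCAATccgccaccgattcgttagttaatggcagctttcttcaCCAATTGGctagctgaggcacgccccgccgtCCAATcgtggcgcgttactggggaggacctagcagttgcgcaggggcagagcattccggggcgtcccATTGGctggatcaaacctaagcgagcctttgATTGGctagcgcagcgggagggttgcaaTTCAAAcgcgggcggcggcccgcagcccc
Top2a, chr11:99024190-99024439, reverse strand: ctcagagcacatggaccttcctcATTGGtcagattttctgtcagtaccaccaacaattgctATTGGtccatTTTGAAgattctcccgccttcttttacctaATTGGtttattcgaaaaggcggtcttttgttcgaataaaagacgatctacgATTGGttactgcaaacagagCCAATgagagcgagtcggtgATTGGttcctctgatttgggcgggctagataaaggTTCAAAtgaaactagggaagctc

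Of 33 mitosis genes with a window in that table, 10 (30.3%) held a CHR and 25 (75.8%) a CCAAT box. Of the windows of all 27025 genes these shares were 16.3% and 34.5%, and of 11176 tested genes 10.7% and 36.1%. Among 325 genes that rose the shares were 16.6% and 46.2%, and among 188 that fell 8.51% and 29.8%. These are counts of letters, not of bound sites.

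Cdk1, the kinase that drives entry into mitosis, lay at 0.685 to 5.26 CPM in WT (median 1.87) and 1.76 to 66.5 CPM in WT-BAPN (median 7.95). The groups overlapped, since WT-BAPN replicate 1 lay within the range of the remaining WT libraries and replicate 2, at 4.59 CPM, below WT replicate 5. Its log2 change was 2.94 ± 0.71 (SE, edgeR adjusted p = 0.0229) and 3.37 ± 0.76 without WT replicate 5 (edgeR adjusted p = 0.0131), and the call ended without WT replicate 1 (2.91, edgeR adjusted p = 0.05 after rounding). Ccnb1, cyclin B1 and partner of that kinase, went from a median of 0.938 CPM in WT (0.737 to 2.75) to 5.26 CPM in WT-BAPN (1.24 to 48.4). Leaving out WT replicate 5, whose 2.75 CPM was the highest, every WT-BAPN library was above every WT library. The log2 change of Ccnb1 was 3.3 ± 0.81 (edgeR adjusted p = 0.0239) and 3.71 without that library, and the call ended without WT replicate 1 or 4 (edgeR adjusted p up to 0.0519). Ccna2, cyclin A2, was at 1.36 to 4.23 CPM in WT and 2.32 to 47.3 CPM in WT-BAPN, a log2 change of 2.81 ± 0.62 (edgeR adjusted p = 0.0163) and of 3.13 ± 0.66 without WT replicate 5, and kept its call in all 13 fits that left out 1 library.

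Ube2c, which loads ubiquitin on targets of the anaphase-promoting complex, lay at 0.77 to 3.66 CPM in WT (median 1.22) and 1.81 to 51.3 CPM in WT-BAPN (median 7.72). WT-BAPN replicate 1 was again the low library and replicate 7 the high one. The log2 change was 3.3 ± 0.78 (edgeR adjusted p = 0.0212) and the call held in all 13 fits. In the GENCODE M21 annotation 22.8% of the exonic bases of Ube2c lie under Tnnc2, a skeletal muscle gene on the other strand, and reads of the 2 genes may not be told apart. Top2a, which untangles sister chromatids, lay at 1.97 to 12.2 CPM in WT (median 2.69) and 4.65 to 84.7 CPM in WT-BAPN (median 16.6). Its only overlap was with WT replicate 5, at 12.2 CPM. The log2 change of Top2a was 2.72 ± 0.74 (edgeR adjusted p = 0.0349) and 3.42 ± 0.77 without that library (edgeR adjusted p = 0.0135). The call held in 4 of 13 fits and ended without any one of WT replicates 1 to 4 and 6 or WT-BAPN replicates 3, 4, 5 and 7 (edgeR adjusted p up to 0.0723, log2 change 2.12 to 3.42).

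Several genes of the list act on the spindle or at the kinetochore, the plate on which chromosomes are pulled. Pbk, a mitotic kinase, rose from a median of 0.954 CPM (0.619 to 1.66) to 10.5 CPM (1.39 to 49.6), a log2 change of 3.77 ± 0.88 (edgeR adjusted p = 0.0207) and of 3.95 ± 0.96 without WT replicate 5. The kinetochore gene Spc25 rose from 0.913 to 5.67 CPM in the median (log2 3.08 ± 0.72, edgeR adjusted p = 0.0208) and Ckap2, a spindle protein, from 0.957 to 6.27 CPM (2.91 ± 0.67, edgeR adjusted p = 0.0199). Without WT replicate 5 Spc25 had 3.31 and Ckap2 3.18. Pbk, Spc25 and Ckap2 kept their calls in all 13 fits. Spag5, which binds the spindle, had a WT range of 0.407 to 0.783 CPM beside 2.86 CPM in replicate 5, and 0.982 to 15.6 CPM in WT-BAPN. The log2 change of Spag5 was 2.78 ± 0.69 (edgeR adjusted p = 0.0251) with all libraries and 3.6 ± 0.69 without replicate 5 (edgeR adjusted p = 0.00785), and the call ended without WT replicate 1 or 4. Cenpf (2.76 ± 0.77, edgeR adjusted p = 0.0368) held in 3 of 13 fits, and was lost without any of the remaining WT libraries or WT-BAPN replicates 3 to 7 (edgeR adjusted p up to 0.0762). Cdca3 (2.85 ± 0.69, edgeR adjusted p = 0.0232) was lost only without WT replicate 1, of the 13 fits. Racgap1, which acts in cytokinesis, was at 1.58 to 1.97 CPM in the remaining WT libraries, 8.35 CPM in WT replicate 5 and 2.48 to 42.3 CPM in WT-BAPN. Without replicate 5 its groups did not overlap, and its log2 change went from 2.39 ± 0.61 to 3.06 ± 0.61 (edgeR adjusted p = 0.0273 and 0.00855), with the call lost without WT replicates 1, 4 or 6 or WT-BAPN replicate 5.

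Bub1b, of the spindle checkpoint, was near the threshold with all libraries. It lay at 1.31 to 2.48 CPM in the remaining WT libraries, at 7.21 CPM in replicate 5 and at 2.22 to 18.5 CPM in WT-BAPN (median 5.87). Its log2 change was 1.49 ± 0.45 (edgeR adjusted p = 0.0488) with that library and 2.11 ± 0.41 without it (edgeR adjusted p = 0.0079), and the call held in 3 of 13 fits. It was lost without any of the remaining WT libraries or WT-BAPN replicates 3 to 7 (edgeR adjusted p up to 0.101). Mybl2, a transcription factor of the cell cycle, went from 0.428 to 2.06 CPM in WT to 1.24 to 3.41 CPM in WT-BAPN (1.26 ± 0.33, edgeR adjusted p = 0.0286). That call held in 6 of 13 fits and was lost without WT replicates 1 to 4 or WT-BAPN replicates 3, 5 or 6 (edgeR adjusted p up to 0.0627).

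Iqgap3, Mastl and Cep192 separated the groups in every library. Iqgap3, a scaffold protein of dividing cells, lay at 0.588 to 1.61 CPM in WT and 2.26 to 26.5 CPM in WT-BAPN, with no overlap (log2 3.42 ± 0.68, edgeR adjusted p = 0.0122, and 3.47 without WT replicate 5). Mastl, a kinase that keeps phosphatases off in mitosis and a gene named after its values were seen, lay at 0.462 to 0.942 CPM against 1.39 to 9.64 CPM (2.58 ± 0.4, edgeR adjusted p = 0.00696). Cep192, a centrosome scaffold, was at 7.15 to 11 CPM in WT and 11.8 to 22.9 CPM in WT-BAPN (0.96 ± 0.17, edgeR adjusted p = 0.0107). WT replicate 5 was an ordinary library for Iqgap3 and Mastl and the highest of the WT libraries for Cep192. Ncapd2, a condensin subunit that compacts chromosomes, had 5.3 to 8.32 CPM in the remaining WT libraries, 13 CPM in WT replicate 5 and 8.68 to 30.4 CPM in WT-BAPN (1.28 ± 0.24, edgeR adjusted p = 0.0107). All 4 kept their calls in the 13 fits. Mybl1, a relative of Mybl2, was at 3.05 to 6.1 CPM in the remaining WT libraries, 10.8 CPM in WT replicate 5 and 8.32 to 15.3 CPM in WT-BAPN (1.16 ± 0.29, edgeR adjusted p = 0.0255, 1.49 without replicate 5), and lost its call without WT replicate 1 or 4 or WT-BAPN replicate 4 (edgeR adjusted p up to 0.059).

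**Figure D3:**
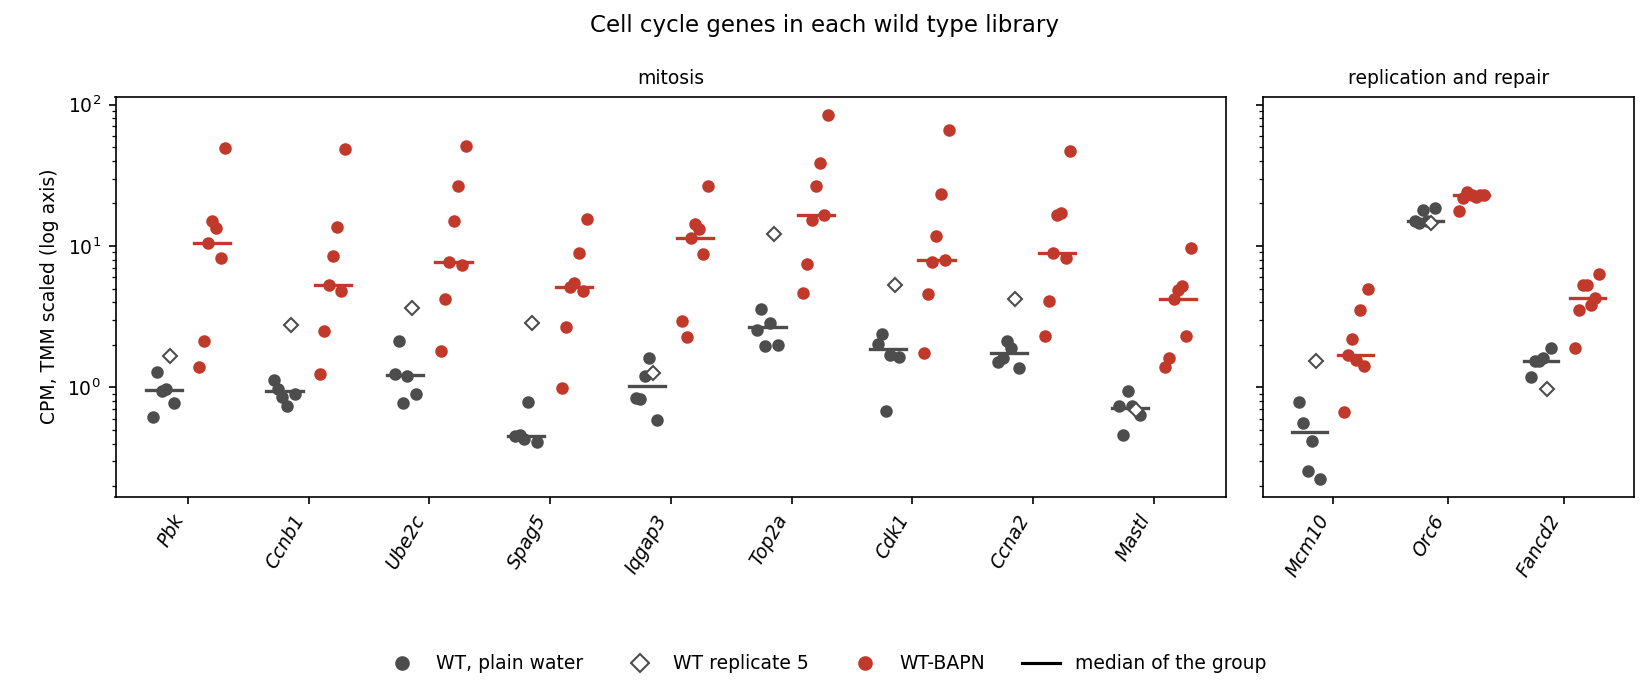
CPM on a log axis of 12 cell cycle genes in each of the 6 WT libraries (grey, WT replicate 5 as an open diamond) and 7 WT-BAPN libraries (red), with group medians as lines. The WT-BAPN medians lie above the WT medians for all 12, and WT-BAPN spans a far wider range, for Cdk1 from 1.76 to 66.5 CPM.

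DNA replication genes rose in part. Of 31 tested, 5 rose and none fell in both fits, and the median log2 change was 0.69 and 0.91. The number called higher was 12 without WT replicate 5 and 9 without WT-BAPN replicate 1, but 2 without any one of WT replicates 1, 4 and 6 or WT-BAPN replicate 5, and 3 without WT replicates 2 or 3 or WT-BAPN replicate 3. Orc6, of the complex that marks replication origins, was at 14.5 to 18.5 CPM in WT and 17.7 to 24.1 CPM in WT-BAPN (0.48 ± 0.1, edgeR adjusted p = 0.0161), with only WT-BAPN replicate 1, at 17.7 CPM, inside the WT range. Gins2, of the replicative helicase, went from a median of 1.34 to 3.55 CPM (1.55 ± 0.38, edgeR adjusted p = 0.0239). Orc6 and Gins2 held in all 13 fits, though 67.3% of the exonic bases of Gins2 lie under Gse1 on the other strand and its reads are uncertain. Mcm10, which loads the polymerase, went from 0.485 to 1.68 CPM in the median (1.84 ± 0.48, edgeR adjusted p = 0.0297) and held in 6 of 13 fits, being lost without WT replicates 1 to 4 or 6 or WT-BAPN replicates 3 or 5. A pair of DNA cross-link repair genes of the Fanconi group rose in all 13 fits. Fancg went from 3.22 to 7.38 CPM in WT to 6.41 to 9.39 CPM in WT-BAPN (0.86 ± 0.19, edgeR adjusted p = 0.0151). Fancd2, named after its values were seen, went from 0.972 to 1.9 CPM to 1.91 to 6.34 CPM (1.58 ± 0.3, edgeR adjusted p = 0.0107). Only Fancd2 of the pair separated the groups with WT replicate 5 included.

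Annotation terms of the deposited table were picked after it was seen that they held many called genes. Of 85 tested genes of chromosome segregation 26 rose and 1 fell, and of 30 of the spindle assembly checkpoint 15 rose. Of 144 kinetochore genes 35 rose and 2 fell, with a median log2 change of 0.08 over the term. The term for homologous recombination had 11 of 78 higher and that for interstrand cross-link repair 7 of 31.

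The lysyl oxidase family, the enzymes that BAPN inhibits, had no member called in both fits of the 5 tested. With an unadjusted p under 0.05 edgeR had 1 member higher in each fit, limma voom called 1 higher and DESeq2 none. Lox, which cross-links collagen and elastin, was at 84.5 CPM in WT replicate 5, 370 to 644 CPM in the remaining WT libraries and 525 to 1251 CPM in WT-BAPN (median 807). Its values were 0.84 ± 0.42 (edgeR adjusted p = 0.215) with all libraries and 0.63 ± 0.38 without replicate 5 (edgeR adjusted p = 0.288). Loxl2, the relative that acts on basement membrane collagen, was at 43.5 to 69.5 CPM in the remaining WT libraries, 134 CPM in WT replicate 5 and 64.2 to 171 CPM in WT-BAPN. Its log2 difference was 0.65 ± 0.29 (edgeR adjusted p = 0.156) and 0.96 ± 0.26 without that library (edgeR adjusted p = 0.0315), a call made in 1 of the 13 fits. WT replicate 5 was thus low for Lox and high for Loxl2. Loxl1, which binds elastic fibres, lay at 435 to 762 CPM in WT without replicate 5 and 366 to 719 CPM in WT-BAPN, with log2 differences of 0.12 ± 0.33 and, without replicate 5, -0.1 ± 0.24. Loxl3 lay at 86.1 to 125 CPM and 76.8 to 120 CPM, with 0.13 ± 0.26 and -0.08 ± 0.17, and Loxl4 at 3.36 to 5.15 CPM and 3.87 to 9.64 CPM, with 0.17 ± 0.36 and 0.52 ± 0.35. For these 3 the edgeR adjusted p lay between 0.338 and 0.848.

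Of 18 fibrillar and microfibril-associated collagen genes 4 rose on BAPN and none fell, with medians of 0.75 and 0.86. Only 1 was called without WT replicates 3 or 6, and 2 without WT replicates 1 or 2 or any one of WT-BAPN replicates 2 to 6. Col5a2, a chain of collagen V that sets fibril diameter, was at 128 CPM in WT replicate 5, 385 to 484 CPM in the remaining WT libraries and 632 to 971 CPM in WT-BAPN (median 927). No WT-BAPN library reached down to the WT range. The log2 change was 1.16 ± 0.27 (edgeR adjusted p = 0.0207) and 0.99 ± 0.23 without replicate 5 (edgeR adjusted p = 0.0155), and it held in all 13 fits. Col5a1, its partner chain, was at 256 to 527 CPM in the remaining WT libraries, 74.8 CPM in WT replicate 5 and 533 to 885 CPM in WT-BAPN. The groups did not overlap, and the values stood at the threshold: 1.1 ± 0.33 (edgeR adjusted p = 0.0499) and 0.89 ± 0.28 (edgeR adjusted p = 0.0484). Col5a1 held in 4 of 13 fits and was lost without WT replicates 1, 2, 3 or 6 or WT-BAPN replicates 2 to 6 (edgeR adjusted p up to 0.0984). Col6a3, a chain of the beaded filaments of collagen VI, lay at 285 to 519 CPM in WT and 478 to 1086 CPM in WT-BAPN (1.09 ± 0.29, edgeR adjusted p = 0.0301), and was lost without WT replicates 2, 3 or 6 or WT-BAPN replicates 3 or 4. Col16a1, which sits on fibril surfaces, lay at 24.2 to 37.3 and 30.5 to 86.4 CPM (0.8 ± 0.22, edgeR adjusted p = 0.0342) and held in 6 of 13 fits, lost without WT replicates 1, 3, 4 or 6 or WT-BAPN replicates 2, 5 or 6.

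Elastin itself did not pass. Eln was at 253 CPM in WT replicate 5, 3348 to 9794 CPM in the remaining WT libraries and 12447 to 30382 CPM in WT-BAPN (median 14838). Every WT-BAPN library was above every WT library, with a ratio of the medians of 3.06. The log2 value was 1.86 ± 0.61 (edgeR adjusted p = 0.0654) and 1.61 ± 0.52 without replicate 5 (edgeR adjusted p = 0.0569), and over the 13 fits that left out 1 library the adjusted p ran from 0.0569 to 0.119. Of 22 elastic fibre and microfibril genes only Mfap2, of the fibrillin microfibril, was called in both fits. Mfap2 lay at 8.58 to 22.3 CPM in WT and 23.5 to 48.9 CPM in WT-BAPN without overlap (0.95 ± 0.25, edgeR adjusted p = 0.0301), and was lost without WT replicates 1 or 4 or WT-BAPN replicates 2 or 5 (edgeR adjusted p up to 0.0716). The list's median was 0.44 and 0.39. An unadjusted p under 0.05 was found by edgeR for 6 members in each fit, all of them higher. DESeq2 called 3 higher with all libraries and limma voom 7, and neither called any lower.

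Basement membrane genes had no member called in both fits of 23 tested. With an unadjusted p under 0.05 edgeR had 3 higher and 2 lower, and 3 and 3 without WT replicate 5. DESeq2 called 1 higher and 1 lower, and limma voom 3 and 2. Col4a5, a collagen IV chain, had groups without overlap, at 100 to 427 CPM in WT and 495 to 1037 CPM in WT-BAPN, and a log2 value of 1.13 ± 0.39 (edgeR adjusted p = 0.0816). Lama4, a laminin chain, had -0.49 ± 0.24 with all libraries (edgeR adjusted p = 0.214) and -0.67 ± 0.19 without WT replicate 5 (edgeR adjusted p = 0.0313). Among 27 genes of collagen folding 1 fell, P4ha1, the catalytic subunit of prolyl hydroxylase. P4ha1 lay at 235 to 357 CPM in the remaining WT libraries, 108 CPM in WT replicate 5 and 58.6 to 204 CPM in WT-BAPN (median 106), so that without replicate 5 the groups did not overlap. Its log2 change was -1.26 ± 0.33 (edgeR adjusted p = 0.0305) and -1.42 ± 0.32 (edgeR adjusted p = 0.013), and the call held in 5 of 13 fits, being lost without WT replicates 1, 2 or 4 or WT-BAPN replicates 2 to 6.

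Other genes of the matrix were called outside these lists and named after their values were seen. Pxdn, peroxidasin, which forms a cross-link of collagen IV other than that of lysyl oxidase, lay at 56.1 to 106 CPM in WT and 128 to 273 CPM in WT-BAPN (1.21 ± 0.2, edgeR adjusted p = 0.0102). Ppic, cyclophilin C, lay at 53.5 to 83.7 and 120 to 262 CPM (1.31 ± 0.27, edgeR adjusted p = 0.0144). In both the groups did not overlap and the call held in all 13 fits.

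Of 34 metalloproteinases and inhibitors 6 were called higher with all libraries, 3 without any one of WT replicates 2 to 6 or WT-BAPN replicates 2 to 4, 2 without WT replicate 1 or WT-BAPN replicate 5, and 2 in both fits, Adamts12 and Adamts6, both secreted proteases with thrombospondin repeats. Adamts12 lay at 5.02 to 8.87 CPM in WT and 9.45 to 22.1 CPM in WT-BAPN without overlap (1.26 ± 0.24, edgeR adjusted p = 0.0107). Adamts6 lay at 6.63 to 20.2 CPM in WT and 17.9 to 78.7 CPM in WT-BAPN (1.72 ± 0.42, edgeR adjusted p = 0.0239), with WT-BAPN replicate 7 alone inside the WT range. Plat, tissue plasminogen activator, was the 1 gene of 21 of the plasmin, coagulation and cathepsin list that rose, from 41.3 to 77.3 CPM to 92.1 to 154 CPM (1.1 ± 0.23, edgeR adjusted p = 0.0144). The groups of Plat did not overlap, and all 3 genes kept their calls in the 13 fits.

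Of 23 matricellular genes 2 rose, Spp1, osteopontin, and Cthrc1, a secreted protein of injured arteries, and the list's median was 0.16 and 0.39. In both the WT-BAPN libraries differed among themselves far more than the WT libraries did. Spp1 was at 1075 CPM in WT-BAPN replicate 5, 491 CPM in replicate 7 and 91.3 CPM in replicate 2, and at 1.23 to 3.11 CPM in the remaining WT-BAPN libraries, against 1.27 to 8.58 CPM in WT. The medians of the groups, 3.01 and 3.11 CPM, were alike. The log2 change of 6.03 ± 1.58 (edgeR adjusted p = 0.0299) fell to 4.75 without WT-BAPN replicate 5 (edgeR adjusted p = 0.0694), and the call also ended without WT replicates 1 to 4 or 6. In Spp1 18.8% of the exonic bases lie under Gm42793 on the same strand. Cthrc1 was at 103 CPM in WT-BAPN replicate 5 and 1.71 to 24.2 CPM in the remaining 6, against 0.645 to 2.5 CPM in WT (4.05 ± 1.04, edgeR adjusted p = 0.0274). Without that library it had 2.76 (edgeR adjusted p = 0.0789), and the call ended without WT replicates 1 or 4 too. WT-BAPN replicates 5, 2 and 7 had a macrophage score of 5.12, 5.12 and 3.55, within a group range of 2.29 to 5.12, while WT-BAPN replicate 6, with Spp1 at 3.11 CPM, had 3.59. WT-BAPN replicates 5 and 2 also had the highest mesothelium scores of their group, at 3.96 and 3.37, and the highest cardiac muscle scores, at 4.33 and 3.44 against -0.38 to 1.6 in the remaining WT-BAPN libraries. Their part in these values was not tested.

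Of 29 proteoglycan and hyaluronan genes 2 fell. Has3, a hyaluronan synthase, lay at 9.76 to 13.7 CPM in the remaining WT libraries, 3.32 CPM in WT replicate 5 and 3.36 to 5.9 CPM in WT-BAPN (-1.21 ± 0.36, edgeR adjusted p = 0.05 after rounding, and -1.39 ± 0.34, edgeR adjusted p = 0.0183, without replicate 5). Sdc4, a cell surface proteoglycan, lay at 304 to 560, 232 and 150 to 303 CPM in the same order (-0.79 ± 0.24, edgeR adjusted p = 0.0489, and -0.89 without replicate 5). Has3 held in 2 and Sdc4 in 3 of 13 fits. Both were lost without any of the remaining WT libraries or any of WT-BAPN replicates 2 to 6, and Has3 also without WT-BAPN replicate 1 (edgeR adjusted p up to 0.102 and 0.122). Without WT replicate 5 neither gene's groups overlapped.

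**Figure D4:**
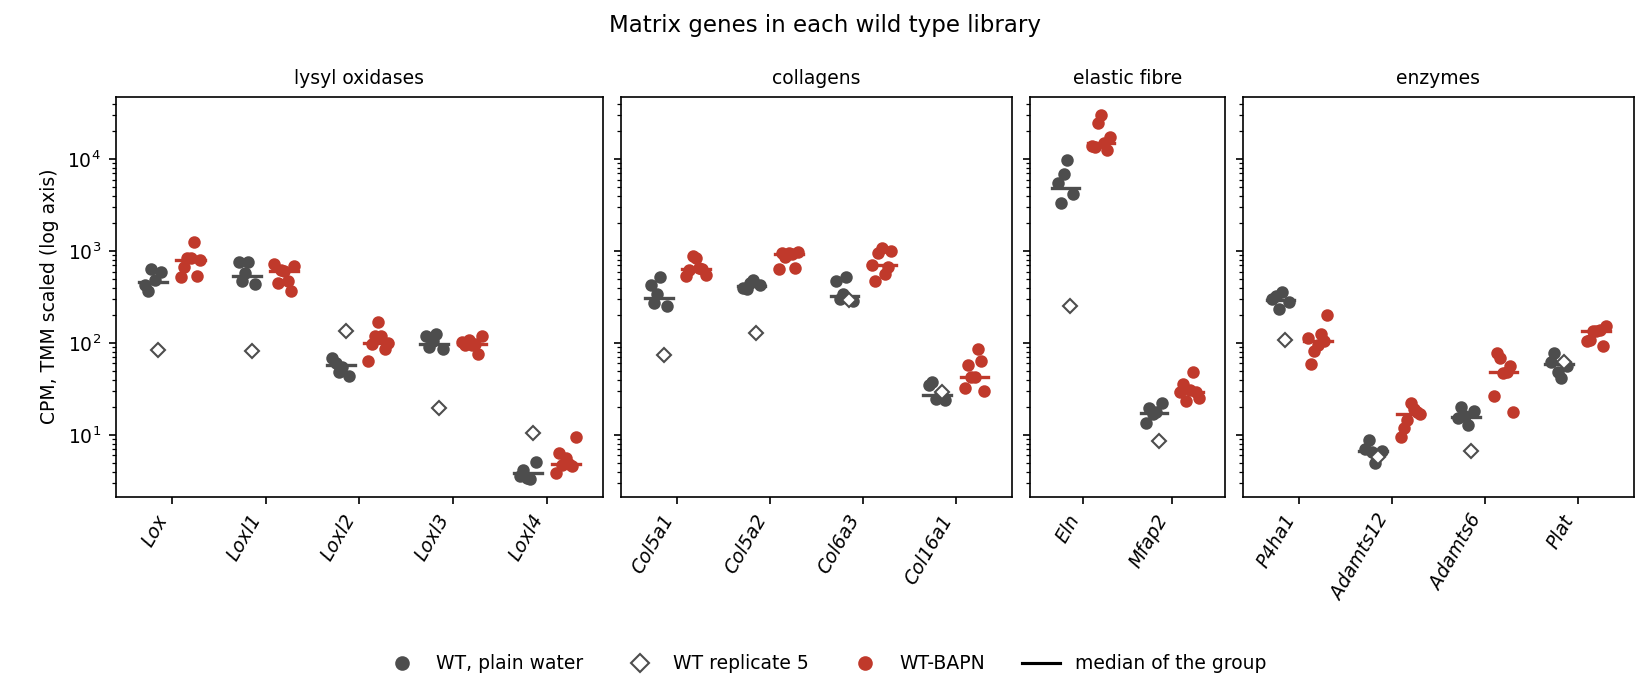
CPM on a log axis of 15 matrix genes in each of the 6 WT libraries (grey, WT replicate 5 as an open diamond) and 7 WT-BAPN libraries (red), with group medians as lines. Col5a1, Col5a2, Eln, Mfap2, Adamts12 and Plat show no overlap, while the groups of Loxl1 and Loxl3 overlap.

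Of 31 contractile genes of smooth muscle 3 fell and none rose, against 1.70% of all genes called lower in both fits. A log2 value below 0 was found for 29, and the medians were -0.48 and -0.58, beside -0.04 and 0.04 over all genes tested. With all libraries 4 were called lower, and 2 without WT-BAPN replicates 4 or 5. An unadjusted p under 0.05 was found by edgeR for 11 members, and for 17 without WT replicate 5, all of them lower. DESeq2 called 7 lower with all libraries and limma voom 14, and neither called any higher. The list score was 8.68 to 9.05 in WT without replicate 5, 8.05 in that library and 7.78 to 8.59 in WT-BAPN, so that every WT-BAPN library was below those 5 WT libraries. Des, desmin, was at 2566 CPM in WT replicate 5, in which skeletal muscle RNA was found, at 107 to 274 CPM in the remaining WT libraries and at 54.4 to 146 CPM in WT-BAPN. Its log2 change was -2.79 ± 0.61 (edgeR adjusted p = 0.0161) with that library and -1.1 ± 0.32 without it (edgeR adjusted p = 0.0379), a call made in all 13 fits. Tagln, transgelin, had -1.06 ± 0.29 (edgeR adjusted p = 0.0369) and -1.22 ± 0.27 without replicate 5 (edgeR adjusted p = 0.013). It held in 6 of 13 fits, lost without WT replicates 1, 4 or 6 or WT-BAPN replicates 3 to 6. Tagln was counted at 9.73 to 54.6 CPM only, and 62.4% of its exonic bases lie under Gm48529 on the other strand, so its count is uncertain.

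Cnn1, calponin, which was called without WT replicate 5 and not with all libraries, lay at 3095 to 4690 CPM in the remaining WT libraries, 1622 CPM in replicate 5 and 887 to 2568 CPM in WT-BAPN. Without that library the groups of Cnn1 did not overlap, and the values were -1.06 ± 0.32 (edgeR adjusted p = 0.0516) and -1.2 ± 0.32 (edgeR adjusted p = 0.0253). For Acta2 and Myh11 the groups overlapped, with values of -0.64 ± 0.41 (edgeR adjusted p = 0.347) and -0.48 ± 0.32 (edgeR adjusted p = 0.362). The remaining WT libraries lay at 28359 to 39695 and 6419 to 10205 CPM, and WT-BAPN at 9005 to 31546 and 2978 to 7430 CPM. Over the 13 fits without 1 library Acta2 ran from -0.86 to -0.51 and Myh11 from -0.66 to -0.37. Neither gene was called in any of these fits. Ablim1, an actin binding protein outside the list and named after its values were seen, lay at 253 to 294 CPM in WT and 83 to 212 CPM in WT-BAPN without overlap (-0.91 ± 0.17, edgeR adjusted p = 0.0107, called in all 13 fits). Of 32 genes of smooth muscle channels and signalling none was called in both fits, where edgeR had 5 lower at an unadjusted p under 0.05 with and without WT replicate 5, DESeq2 called 1 lower and limma voom 4. Pde5a, which degrades cyclic GMP, had -0.49 ± 0.16 (edgeR adjusted p = 0.0616) and -0.56 ± 0.16 without WT replicate 5 (edgeR adjusted p = 0.0353). Endothelial and adventitial fibroblast scores overlapped between the groups, at 4.13 to 5.59 and 5.7 to 7.8 in WT and 3.96 to 6.25 and 5.74 to 7.57 in WT-BAPN.

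Genes of modulated smooth muscle had no member called in both fits of 28, with DESeq2 calling 3 higher and 1 lower and limma voom 1 and 1. edgeR had 3 higher and 4 lower at an unadjusted p under 0.05, and 6 and 2 without WT replicate 5. Timp1, an inhibitor of metalloproteinases, was at 801 CPM in WT-BAPN replicate 7 and 287 CPM in replicate 5, and at 18 to 48.3 CPM in the remaining 5, against 7.21 to 38.7 CPM in WT (2.91 ± 0.81, edgeR adjusted p = 0.0369). Without WT replicate 5 it had 2.72 ± 0.85 (edgeR adjusted p = 0.0515), and without WT-BAPN replicate 7 it had 1.66 (edgeR adjusted p = 0.0871). Tnfrsf11b, osteoprotegerin, was high in the same libraries, at 219 CPM in WT-BAPN replicate 7 and 79.5 CPM in replicate 5, with values of 2.15 ± 0.61 (edgeR adjusted p = 0.0402) and, without WT replicate 5, 1.95 ± 0.62 (edgeR adjusted p = 0.0563). Without WT-BAPN replicate 7 the value of Tnfrsf11b was 1.14 and its call ended. Both calls also ended without WT replicates 1 to 4 or WT-BAPN replicate 5, and that of Timp1 without WT replicate 6.

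Cytosolic heat shock chaperones fell in part on BAPN. They fold newly made and damaged proteins, and their genes are targets of the heat shock factor HSF1. Of 30 tested, 14 fell and none rose, 29 had a value below 0, and the median log2 change was -1.06 and -1.12. The score was 7.5 to 8.52 in WT without replicate 5, 7.1 in that library and 6.5 to 7.21 in WT-BAPN. Among the 14, WT replicate 4 was the highest WT library for 10, and WT-BAPN replicate 7 the highest on BAPN for 11. Of the 14, 11 were called in all 13 fits.

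The promoters of Hspb1, a small heat shock protein, and Fkbp4, a co-chaperone of HSP90, are printed as examples that hold the paired heat shock element GAANNTTC, whose fixed bases are in capitals. They are the 250 bases before the start site in RefSeq for GRCm38.p6, 5′ to 3′ on the strand of the gene, and were chosen after the matches were seen.
Hspb1, chr5:135887669-135887918, forward strand: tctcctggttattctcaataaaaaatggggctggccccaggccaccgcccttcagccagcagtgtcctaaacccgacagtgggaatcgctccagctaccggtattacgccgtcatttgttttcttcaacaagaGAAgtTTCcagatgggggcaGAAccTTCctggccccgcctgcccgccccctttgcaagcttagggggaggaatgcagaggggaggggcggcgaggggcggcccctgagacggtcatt
Fkbp4, chr6:128438657-128438906, reverse strand: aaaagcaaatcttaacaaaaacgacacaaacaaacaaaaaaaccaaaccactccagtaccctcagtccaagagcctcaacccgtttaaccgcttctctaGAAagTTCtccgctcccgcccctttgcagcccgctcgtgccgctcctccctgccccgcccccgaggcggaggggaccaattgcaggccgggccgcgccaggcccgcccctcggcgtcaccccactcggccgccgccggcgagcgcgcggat

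Of 25 heat shock genes with a window 5 (20.0%) held that element, and of the 10 called in both fits 4 (40.0%), against 6.78% of all windows and 4.95% of those of tested genes. Among 188 genes that fell the share was 5.32%, and among 325 that rose 5.23%. Of 18 mitochondrial chaperone and protease genes with a window 1 (5.56%) held it. The element reads the same on both strands.

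Hspb1 lay at 624 CPM in WT replicate 5, 1483 to 3420 CPM in the remaining WT libraries and 148 to 385 CPM in WT-BAPN (medians 1979 and 203). The groups did not overlap, also with the low replicate 5. Its log2 change was -3.09 ± 0.5 (edgeR adjusted p = 0.00696) and -3.27 ± 0.48 without replicate 5 (edgeR adjusted p = 0.00398). Hspa8, the constitutive HSP70, lay at 3177 CPM in WT replicate 5, 5854 to 8044 CPM in the remaining WT libraries and 917 to 3373 CPM in WT-BAPN (-1.9 ± 0.38, edgeR adjusted p = 0.0122, and -2.03 without replicate 5), where only WT-BAPN replicate 7 reached WT replicate 5. Hsp90aa1, the inducible HSP90, lay at 784 to 1968 CPM and 235 to 718 CPM without overlap (-1.83 ± 0.32, edgeR adjusted p = 0.0107). All of these were called in the 13 fits.

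Some co-chaperones that work with HSP70 and HSP90 fell too. Stip1 lay at 172 to 497 CPM in WT and 72.9 to 191 CPM in WT-BAPN (-1.56 ± 0.3, edgeR adjusted p = 0.0107, and -1.7 without WT replicate 5), Ahsa1 at 124 to 271 and 73.5 to 134 CPM (-1.29 ± 0.2, edgeR adjusted p = 0.00696), and Fkbp4 at 222 to 349 and 66 to 185 CPM (-1.28 ± 0.21, edgeR adjusted p = 0.00964). Fkbp4 separated the groups with all libraries, and Stip1 and Ahsa1 once WT replicate 5 was left out. Dnaja4, of the HSP40 family, lay at 22.6 to 55.4 and 5.41 to 12.6 CPM without overlap (-1.87 ± 0.35, edgeR adjusted p = 0.0107), with 44.1% of its exonic bases under Wdr61 on the other strand. These 4 were called in all 13 fits.

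The stress-inducible pair Hspa1a and Hspa1b, near-identical copies between which reads may be split, was high in 2 WT libraries. Hspa1a reached 1264 CPM in WT replicate 4 and 804 CPM in WT replicate 3, while the remaining WT libraries lay between 44.6 and 165 CPM. Hspa1b was at 2343 and 1602 CPM in the same 2 libraries and between 89.7 and 388 CPM in the rest. In Hspa1a 19% of the exonic bases lie under Gm20481 on the other strand. In WT-BAPN they lay at 41.9 to 82.9 and 63.1 to 144 CPM, and the lowest WT library, replicate 2, had 44.6 and 89.7 CPM. The groups overlapped for both, with log2 changes of -2.77 ± 0.8 and -2.96 ± 0.87 (edgeR adjusted p = 0.0428 and 0.045). They held in 5 and 4 of 13 fits, lost without WT replicates 1, 3 or 4 or WT-BAPN replicates 2 to 6, and Hspa1b also without WT-BAPN replicate 1, at values of up to -1.98 and -2.26.

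**Figure D5:**
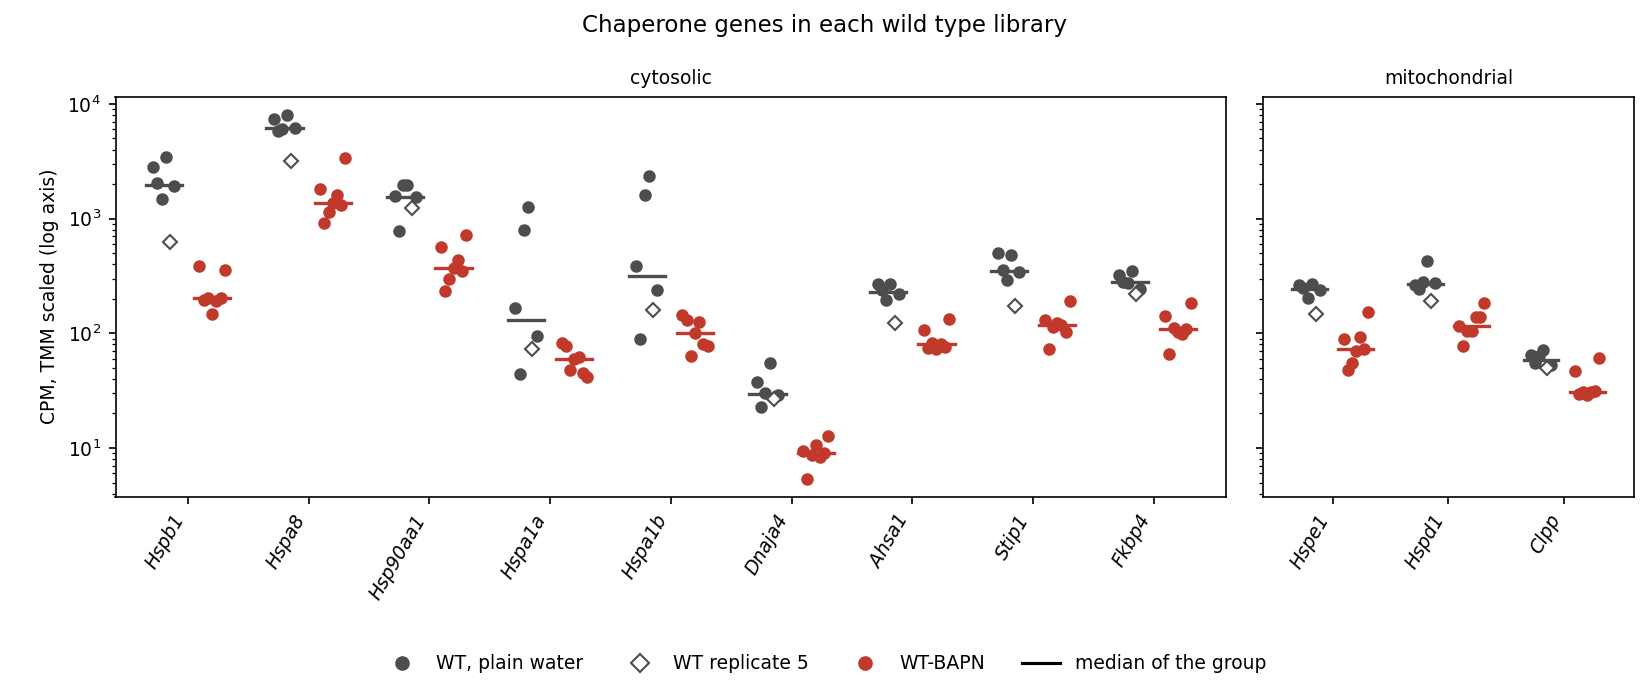
CPM on a log axis of 9 cytosolic and 3 mitochondrial chaperone and protease genes in each of the 6 WT libraries (grey, WT replicate 5 as an open diamond) and 7 WT-BAPN libraries (red), with group medians as lines. WT-BAPN medians lie below WT medians for all 12, and WT replicates 3 and 4 lie far above the other WT libraries for Hspa1a and Hspa1b.

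In mitochondria the chaperonin pair fell as well. Hspd1, which encodes HSP60, lay at 191 to 430 CPM in WT and 78.2 to 182 CPM in WT-BAPN without overlap (-1.19 ± 0.27, edgeR adjusted p = 0.0175). Hspe1, which encodes its lid HSP10, lay at 146 to 270 and 47.6 to 153 CPM (-1.46 ± 0.29, edgeR adjusted p = 0.0121). Both were called in all 13 fits. Clpp, the subunit of a matrix protease, lay at 50.3 to 71.3 and 28.8 to 61.5 CPM (-0.68 ± 0.19, edgeR adjusted p = 0.0372) and held in 4 of 13 fits, lost without WT replicates 1, 3, 4 or 6 or WT-BAPN replicates 2 to 6. The other 19 of 22 genes of this list were not called in both fits, and its median was -0.15. With all libraries 3 were called lower, and 6 without WT-BAPN replicate 7. Of 30 endoplasmic reticulum chaperones and genes of the unfolded protein response, edgeR called 1 in both fits, Pdia5, a disulfide isomerase that was higher on BAPN (0.91 ± 0.23, edgeR adjusted p = 0.0283), lost without WT replicate 3 or WT-BAPN replicates 3, 4 or 5. Dnajc3, an HSP40 protein of that compartment, had -0.57 ± 0.21 (edgeR adjusted p = 0.0915) and -0.68 ± 0.2 without WT replicate 5 (edgeR adjusted p = 0.0409). DESeq2 called 1 higher and 2 lower in this list, and limma voom 1 and 9. Under the annotation term for protein refolding, picked after the data were seen, 9 of 20 genes fell and none rose.

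Ribosome biogenesis factors fell in part, by small amounts. Of 34 tested, 11 fell in both fits and none rose, and 33 had a value below 0, with medians of -0.44 and -0.47. Nop56, of the box C/D particle that modifies ribosomal RNA, lay at 74.8 to 101 CPM in WT and 49.5 to 65 CPM in WT-BAPN without overlap (-0.54 ± 0.11, edgeR adjusted p = 0.0122). Nop14, of the small subunit processome, lay at 25.1 to 33.1 and 18.7 to 24.8 CPM, again without overlap (-0.47 ± 0.11, edgeR adjusted p = 0.021), and both held in all 13 fits. Ncl, nucleolin, had -0.57 ± 0.14 (edgeR adjusted p = 0.0232) and was lost without WT replicate 1 (edgeR adjusted p = 0.0528). Wdr74 had -0.54 ± 0.14 (edgeR adjusted p = 0.0316) and held in 5 of 13 fits, lost without WT replicates 1, 4 or 6 or WT-BAPN replicates 2 to 6. WT-BAPN replicate 7, the library with the highest mitosis score, was the highest of its group for 9 of the 11 genes. With all libraries the list had 13 members called lower, and it had 20 without WT-BAPN replicate 7, 5 without WT replicate 1, 6 without any one of WT-BAPN replicates 2, 3, 5 and 6, and 8 without WT replicate 4 or WT-BAPN replicate 4.

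Immediate early genes, which respond quickly to stretch and growth factors, fell in part: 4 of 34, with medians of -0.63 and -0.5. The number called lower was 8 without WT replicate 5 and 7 without WT-BAPN replicate 7, and 2 without any one of WT replicates 1, 3, 4 and 6 or WT-BAPN replicates 3 to 6. Nr4a3, an orphan nuclear receptor, was at 308 CPM in WT replicate 5, 49.9 to 88.4 CPM in the remaining WT libraries and 7.46 to 18 CPM in WT-BAPN (-3.07 ± 0.64, edgeR adjusted p = 0.0144, and -2.45 ± 0.59, edgeR adjusted p = 0.0174, without replicate 5). Maff lay at 42.1 to 68.6 and 11.7 to 25.3 CPM (-1.55 ± 0.33, edgeR adjusted p = 0.0151). For both the groups did not overlap and the call held in all 13 fits. Ier2 (-1.02 ± 0.28, edgeR adjusted p = 0.0367) and Zfp36, which destabilises cytokine messages (-0.99 ± 0.29, edgeR adjusted p = 0.0447), held in 5 and 3 of 13 fits, both lost without WT replicates 1, 3, 4 or 6 or WT-BAPN replicates 3 to 6, and Zfp36 also without WT replicate 2 or WT-BAPN replicate 1.

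Of 28 genes of the integrated stress response, the programme run by ATF4, 3 fell and none rose. The number called lower was 5 without WT replicate 5 or WT-BAPN replicate 7, 0 without WT replicate 4, and 1 without any one of WT replicates 1, 3 and 6 or WT-BAPN replicates 2 to 6. Ddit3, the transcription factor CHOP, lay at 22.4 to 58.3 CPM in WT and 14.2 to 28.2 CPM in WT-BAPN (-0.82 ± 0.19, edgeR adjusted p = 0.0203), and was lost without WT replicate 4 (edgeR adjusted p = 0.0504). Atf5 had -0.64 ± 0.19 (edgeR adjusted p = 0.0464) and the alanyl-tRNA synthetase Aars -0.7 ± 0.21 (edgeR adjusted p = 0.05 after rounding). They held in 4 and 3 of 13 fits, both lost without WT replicates 1, 3, 4 or 6 or WT-BAPN replicates 2 to 6, and Aars also without WT replicate 2. Among 37 genes of oxidative stress and p53 targets 1 fell, Aen, a nuclease (-0.56 ± 0.16, edgeR adjusted p = 0.0382), which held in 4 of 13 fits although its groups did not overlap, at 25.1 to 30.8 and 13.6 to 22.1 CPM. It was lost without WT replicates 1, 2, 4 or 6 or WT-BAPN replicates 2 to 6.

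Of 37 autophagy and lysosome genes 3 fell, all of them of autophagosomes or mitophagy. Sqstm1, the cargo receptor p62, lay at 400 to 588 CPM in WT and 262 to 356 CPM in WT-BAPN without overlap (-0.57 ± 0.15, edgeR adjusted p = 0.0297), with 17.3% of its exonic bases under Mrnip on the other strand. Map1lc3a, which encodes an LC3 protein, had -0.84 ± 0.24 (edgeR adjusted p = 0.0383), and Pink1, the kinase that marks damaged mitochondria, -0.67 ± 0.19 (edgeR adjusted p = 0.0402). No call of the 3 survived all 13 fits: each was lost without WT replicates 1 or 4 or WT-BAPN replicates 3 to 6, Map1lc3a and Pink1 also without WT replicate 3, Map1lc3a without WT-BAPN replicate 2, and Pink1 without WT replicate 6. The list had 5 called lower without WT replicate 5, 1 without WT replicate 3, and 0 without any one of WT replicates 1 and 4 or WT-BAPN replicates 3 to 6.

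The respiratory chain had no call. Of 70 nuclear encoded genes 68 had a value below 0, with medians of -0.37 and -0.31, and all 13 mitochondrially encoded messages had one, with medians of -0.84 and -0.82. No member of either list was called by edgeR in either fit. At an unadjusted p under 0.05 edgeR had 3 and 8 lower, and 1 and 7 without WT replicate 5. DESeq2 called 0 and 2 lower and limma voom 28 and 10. Over all genes DESeq2 called 697 of 13930 lower and limma voom 2154 of 14216. The score of the mitochondrially encoded list was 9.08 to 10.62 in WT and 7.38 to 9.57 in WT-BAPN, overlapping, with WT-BAPN replicate 3 the lowest. mt-Nd4l, a subunit of complex I, lay at 3.66 to 15.8 and 0.205 to 8.98 CPM (-1.49 ± 0.5, edgeR adjusted p = 0.0722). Of 30 genes of the tricarboxylic acid cycle and lipoylation none was called, with 3 lower at an unadjusted p under 0.05 (2 without WT replicate 5), 0 by DESeq2 and 3 by limma voom. Of 31 glycolysis and hypoxia genes 1 fell, Ndrg1 (-0.98 ± 0.26, edgeR adjusted p = 0.0316), lost without WT replicates 1, 2 or 6 or WT-BAPN replicates 3, 4 or 5.

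Among clock genes 1 of 19 rose and 1 fell. Npas2, a partner of BMAL1 in the activating arm, lay at 3.2 to 8.39 CPM in WT and 10.7 to 52.4 CPM in WT-BAPN (1.93 ± 0.46, edgeR adjusted p = 0.0215), and was lost without WT-BAPN replicate 3 (1.57, edgeR adjusted p = 0.0506). Cry1, of the repressing arm, lay at 8.3 to 18.7 and 2.19 to 7.14 CPM (-1.54 ± 0.3, edgeR adjusted p = 0.012), and held in all 13 fits. In both genes the groups did not overlap. No label gives the time of day at which a mouse was sampled, so a difference in time and the treatment cannot be told apart.

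In TGF-beta signalling, which smooth muscle uses to make matrix and which is altered in inherited aneurysm, none of 36 genes was called in both fits. edgeR had 1 higher and 5 lower at an unadjusted p under 0.05, and 2 and 7 without WT replicate 5. DESeq2 called 2 lower, and limma voom 2 higher and 7 lower. Tgfb3, a ligand, lay at 220 to 409 CPM in the remaining WT libraries, 52.3 CPM in WT replicate 5 and 112 to 238 CPM in WT-BAPN, with -0.83 ± 0.32 (edgeR adjusted p = 0.112) and -1.04 ± 0.24 without replicate 5 (edgeR adjusted p = 0.0138). Id1, a target of the BMP branch, lay at 214 to 286, 68 and 70.6 to 152 CPM in the same order, with -0.96 ± 0.3 (edgeR adjusted p = 0.0586) and -1.14 ± 0.27 (edgeR adjusted p = 0.0158). In both genes WT replicate 5 lay below every other WT library. Of 37 growth factor and receptor genes none was called in both fits, where edgeR had 6 higher and 4 lower at an unadjusted p under 0.05, and 4 and 2 without WT replicate 5. DESeq2 called 2 and 1 and limma voom 2 and 3. Igf1r had -0.4 ± 0.14 (edgeR adjusted p = 0.0806) and -0.5 ± 0.12 without replicate 5 (edgeR adjusted p = 0.0171). Of 40 Notch and Wnt genes 1 rose, near the share of 2.92% over all genes. It was the receptor Fzd6 (0.73 ± 0.19, edgeR adjusted p = 0.029), lost without WT replicates 1 or 4 or WT-BAPN replicates 3 to 6.

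Further genes named by size or by p belong to other pathways. H1f0, a linker histone named after its values were seen, lay at 49.4 to 77.4 and 112 to 217 CPM (1.18 ± 0.27, edgeR adjusted p = 0.0196). Rasl10b, a small GTPase, lay at 17.3 to 84.3 and 1.78 to 14.5 CPM (-2.41 ± 0.53, edgeR adjusted p = 0.0163), and Agap1, of membrane traffic, at 32.1 to 57.9 and 22.3 to 29.3 CPM (-0.82 ± 0.15, edgeR adjusted p = 0.0107). In these 3 the groups did not overlap, and each held in all 13 fits. Mansc1 (0.9 ± 0.22, edgeR adjusted p = 0.0215) also held in all 13. Errfi1, an inhibitor of the EGF receptor, fell from 240 to 502 CPM in the remaining WT libraries and 110 CPM in WT replicate 5 to 77.4 to 133 CPM (-1.45 ± 0.4, edgeR adjusted p = 0.0351), and held in 4 of 13 fits, lost without WT replicates 1, 2, 4 or 6 or WT-BAPN replicates 2 to 6. Tlr4, a receptor for bacterial lipid and matrix fragments, lay at 32.3 to 50.5, 17 and 20 to 27 CPM in the same order (-0.78 ± 0.19, edgeR adjusted p = 0.0237, and -0.93 ± 0.15 without replicate 5), and was lost without WT replicate 4 (edgeR adjusted p = 0.0557).

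Scores of macrophage markers varied widely within both groups. Of 25 macrophage markers none was called in either fit, with a median of 0.21 that became 1.01 without WT replicate 5. At an unadjusted p under 0.05 edgeR had 1 higher, and 7 without WT replicate 5. With all libraries DESeq2 and limma voom each called 1 higher. The score was 1.49 to 4.19 in WT without replicate 5, 5.37 in that library and 2.29 to 5.12 in WT-BAPN. Trem2, of lipid-laden macrophages, lay at 0.276 to 2.75 CPM in WT and 0.888 to 23 CPM in WT-BAPN (2.17 ± 0.83, edgeR adjusted p = 0.111). Ccr2, of recruited monocytes, was at 20.9 CPM in WT replicate 5, 0.113 to 3.74 CPM in the remaining WT libraries and 0.775 to 34.7 CPM in WT-BAPN. The value of Ccr2 was 1.33 ± 1.11 (edgeR adjusted p = 0.473) with that library and 3.4 ± 1.15 without it (edgeR adjusted p = 0.067).

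Interferon stimulated genes stood out in 1 library. The score was 6.55 in WT-BAPN replicate 2, 1.62 to 3.55 in the remaining WT-BAPN libraries and 2.82 to 4.9 in WT. Of 30 genes none was called by edgeR in either fit, 29 had a log2 value above 0, and the medians were 0.56 and 1.03. At an unadjusted p under 0.05 edgeR had 2 higher, and 9 without WT replicate 5. With all libraries DESeq2 called 1 lower and limma voom none. Iigp1, an interferon-induced GTPase, was at 805 CPM in that library against a WT-BAPN median of 20.8 CPM, and its value of 2.41 ± 0.94 (edgeR adjusted p = 0.116) became -0.45 without it. Among 44 chemokine, cytokine and adhesion genes 1 was called in both fits, Nfkbia, the inhibitor of NF-kappa-B, at 86.5 to 172 CPM in WT and 36.7 to 83.7 CPM in WT-BAPN without overlap (-1.06 ± 0.28, edgeR adjusted p = 0.0319). It was lost without WT replicates 1, 2 or 6 or WT-BAPN replicates 3 or 5 (edgeR adjusted p up to 0.0703). This 1 fall is near the share of 1.70% over all genes. Of the 44 genes 27 had a value above 0, and the medians were 0.3 and 0.74. edgeR had 5 higher and 5 lower at an unadjusted p under 0.05. Without WT replicate 5 it had 13 higher and 1 lower, of 43 tested. With all libraries DESeq2 called 3 higher and 1 lower, and limma voom 5 and 1. Cxcl12 had 0.94 ± 0.29 (edgeR adjusted p = 0.0581) and 1.13 ± 0.3 without WT replicate 5 (edgeR adjusted p = 0.0265). Of 20 adventitial fibroblast markers 1 rose, Cd248, against 2.92% of all genes called higher in both fits. Cd248 lay at 15.2 to 36.4 and 40 to 67.3 CPM without overlap (1.06 ± 0.28, edgeR adjusted p = 0.0306). Its call was lost without WT replicates 1, 2 or 6 or WT-BAPN replicates 4 or 5. Of the 20 markers 13 had a value below 0, and the medians were -0.31 and -0.29.

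The falls of other-tissue and lymphocyte markers turned on WT replicate 5. With all libraries 10 of 11 skeletal muscle, 6 of 8 B cell, 3 of 12 T and NK cell and 4 of 14 Schwann cell markers were called lower on BAPN, and without that library none of them was. At an unadjusted p under 0.05 edgeR then had 1 skeletal muscle and 1 Schwann cell marker lower and no B cell or T and NK cell marker, and in the fit of all libraries DESeq2 called 7 Schwann cell markers and limma voom 1. Acta1 went from -8.59 ± 1.7 to -1.63 ± 0.68 (edgeR adjusted p = 0.0122 and 0.126) and Cd79b from -5.36 ± 1.35 to -0.89 ± 0.85 (edgeR adjusted p = 0.0264 and 0.518). Airway genes were the exception in edgeR, with 11 of 16 called lower and 6 still called of 14 tested without WT replicate 5. DESeq2 called 0 airway genes lower with all libraries, and limma voom 2. Their score was -0.83 to 1.78 in the remaining WT libraries and -2.01 to 0.04 in WT-BAPN, overlapping. Bpifa1 lay at 1.57 to 41.3 CPM in the remaining WT libraries and 0 to 2.99 CPM in WT-BAPN (-4.58 ± 1.26 without replicate 5, edgeR adjusted p = 0.031), Scgb1a1 at 1.2 to 40.7 and 0.0683 to 2.99 CPM (-4.27 ± 1.1, edgeR adjusted p = 0.0227), and Cyp2a5 at 0.23 to 6.25 and 0 to 0.262 CPM (-4.63 ± 1.13, edgeR adjusted p = 0.018). The sources used here do not describe how the tissue around the aorta was removed, and its part in the calls above was not tested.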

How the data were processed

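The authors deposited 1 table of raw read counts per gene for 24 libraries, per the file headers not normalized. The submitters' processing notes name HISAT2, Trim Galore, FastQC and DESeq2 as tools, and mm10 and GRCm38 as genome builds. How reads were counted, whether strand was used, and all versions is not given in the sources used here. Of 21959 genes 2577 had no read, and the 13 libraries held 13127645 to 25725459 counts each. The table also gives a gene length, which was not used.

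From the deposited counts edgeR 4.0.16 (R 4.3.3) was run on all 24 libraries, with a mean for each group, TMM scaling, filterByExpr and robust quasi-likelihood tests, and the contrast of WT-BAPN minus WT was taken. A second fit left out WT replicate 5 and remade the filter. A gene was called at a p under 0.05 after Benjamini-Hochberg adjustment, whatever its fold. Values after ± are standard errors. List scores used a prior count of 2. Lists were described by counts and medians, with no set test.

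The members of the comparison and the 53 lists were chosen with earlier results of these data known. Named are the 12 largest rises and falls and the 6 of each with the smallest p among genes called in both fits at 5 CPM or more in the higher group, with every WT-BAPN library on 1 side of the WT median, up to 4 called members of each list described, up to 2 where fewer than 2 were called, all lysyl oxidases, Atad3a and defining markers. Others are said to be named after their values were seen, and a few of the genes it selects are left out here.

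Alternatives were other size factors and filters, only the WT libraries, a replicate block, non-robust dispersion and an adjusted p under 0.01. Further ones were each library left out, DESeq2 1.42.0, and voom with quality weights in limma 3.58.1. Those weights let a library that differs from its group count less. On simulated data with all 24 libraries (14149 genes), 50 of 100 genes changed by 1 on the log2 scale and 82 of 100 changed by 2 were called, with 5 false calls. Apart from these changes, the simulated libraries shared 1 mean profile with independent noise per gene. They held no library with other tissue and no shift common to many genes, so these counts do not cover such libraries. Each library is taken as 1 mouse. The p-values measure only the spread between these libraries. In 36 pairs of libraries of 1 group none were identical, and the lowest chi-square per degree of freedom was 30.8.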

Additional observations from a re-analysis of the deposited data

Results flagged for a closer look

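A library was singled out where its gap to the nearest other library of its group was large against the range of the group by Dixon's test. The test was run on 356 groups of libraries, and 60 values passed. Chance alone passes about 1 in 20 groups, and the genes were chosen with their values known. No explanation was tested for any of them.

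Most of these values belong to WT replicate 5. Above the other WT libraries it had 2.75 CPM for Ccnb1 (others up to 1.13), 2.86 CPM for Spag5 (others up to 0.783), 12.2 CPM for Top2a (others up to 3.56), 3.32 CPM for Cenpf (others up to 1.01) and 7.21 CPM for Bub1b (others up to 2.48). It was also above them at 8.35 CPM for Racgap1 (others up to 1.97), 2566 CPM for Des (others up to 274), 308 CPM for Nr4a3 (others up to 88.4), 9680 CPM for Bpifa1 (others up to 41.3) and 1173 CPM for Cyp2a5 (others up to 6.25). So it was at 1976 CPM for Acta1 (others up to 4.79) and 35.6 CPM for Tbx2 (others up to 16.7). Below the other WT libraries it had 84.5 CPM for Lox (others from 370), 82.2 CPM for Loxl1 (others from 435), 19.9 CPM for Loxl3 (others from 86.1), 128 CPM for Col5a2 (others from 385) and 74.8 CPM for Col5a1 (others from 256). Further low values were 253 CPM for Eln (others from 3348), 108 CPM for P4ha1 (others from 235), 3.32 CPM for Has3 (others from 9.76), 96.6 CPM for Lama4 (others from 284) and 100 CPM for Col4a5 (others from 325). Low as well were 2521 CPM for Myh11 (others from 6419), 4198 CPM for Acta2 (others from 28359), 7.21 CPM for Timp1 (others from 20.7), 52.3 CPM for Tgfb3 (others from 220) and 68 CPM for Id1 (others from 214). The same library had 80.2 CPM for Igf1r (others from 131), 3177 CPM for Hspa8 (others from 5854) and 109 CPM for Tcp1 (others from 184).

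In the WT-BAPN group other libraries stood apart. Orc6 was at 17.7 CPM in WT-BAPN replicate 1 and at 21.9 to 24.1 CPM in the remaining 6. Sqstm1 was at 262 CPM in WT-BAPN replicate 6 and at 317 to 356 CPM in the remaining 6. Scgb1a1 was at 2.99 CPM in WT-BAPN replicate 7 and at 0.0683 to 0.362 CPM in the remaining 6. Cct2 was at 276 CPM in WT-BAPN replicate 7 and at 131 to 164 CPM in the remaining 6. Cct4 was at 231 CPM in WT-BAPN replicate 7 and at 118 to 153 CPM in the remaining 6. Cct5 was at 247 CPM in WT-BAPN replicate 7 and at 95.4 to 133 CPM in the remaining 6. Cct7 was at 293 CPM in WT-BAPN replicate 7 and at 113 to 169 CPM in the remaining 6. Tcp1 was at 257 CPM in WT-BAPN replicate 7 and at 106 to 152 CPM in the remaining 6.

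List scores, the mean log2 CPM of a list, are given in the same way. WT replicate 5 scored 1.73 for mitosis (others 0.1 to 0.63), 2.83 for DNA replication (others 2.11 to 2.34), 5.51 for lysyl oxidase family (others 6.4 to 6.64) and 5.41 for basement membrane collagens and laminins (others 6.05 to 6.35). Its further scores were 5.18 for collagen folding and processing (others 6.27 to 6.55), 5.56 for elastic fibre and microfibril (others 6.75 to 7.15), 8.05 for contractile smooth muscle (others 8.68 to 9.05) and 5.46 for smooth muscle ion channels and signalling (others 6.25 to 6.5). Next came scores of 5.57 for TGF-beta ligands / receptors and effectors (others 6.38 to 6.5), 5.95 for oxidative stress and p53 targets (others 5.45 to 5.61), 5.67 for autophagy and lysosome (others 5.87 to 5.91) and 4.69 for T and NK cell markers (others -2.11 to 0.39). It also had 6.39 for B cell and plasma cell markers (others -2.53 to 0.81), 8.83 for smooth muscle lineage defining markers (others 10.35 to 11.14), 8.45 for skeletal muscle markers (others 0.46 to 1.31) and 5.5 for Schwann cell markers (others 1.8 to 2.89). The score for airway and gland epithelium markers was 8.31 (others -0.83 to 1.78). For fibrillar and microfibril-associated collagens, WT-BAPN replicate 5 scored 7.32 and the others of its group 6.17 to 6.65. For metalloproteinases and inhibitors, WT-BAPN replicate 5 scored 5.18 and the others of its group 4.22 to 4.58. For fatty acid oxidation, WT-BAPN replicate 6 scored 5.91 and the others of its group 4.8 to 5.25. For interferon stimulated genes, WT-BAPN replicate 2 scored 6.55 and the others of its group 1.62 to 3.55. For pericyte markers, WT replicate 3 scored 4.43 and the others of its group 4.9 to 5.16.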

How the results depend on the processing

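The number of called genes depended on the test and on single libraries. Against 873 genes (489 higher, 384 lower), leaving out 1 library gave 327 (without WT replicate 1) to 1609 (without WT-BAPN replicate 7), with 155 to 775 higher and 139 to 834 lower. A fit of only the 13 WT libraries tested 13410 genes and called 783, of which 592 were among the 873. The 12 WT libraries without WT replicate 5 gave 1842 (1073 higher, 769 lower), DESeq2 1493 (796 and 697) and limma voom 4234 (2080 and 2154). An adjusted p under 0.01 left 6 genes (3 and 3), against 91 without WT replicate 5. Same-numbered WT and WT-BAPN libraries share only a number, with deviations correlated at -0.11 to 0.57 and the own number the best partner in 2 of 6. A fit with the replicate block called 1024 genes (531 higher), and with the block and without WT replicate 5 it called 1961 (951 and 1010). Without 1 library at a time Loxl1 ran from -0.1 to 0.27, Loxl3 from -0.08 to 0.24, Loxl4 from -0.01 to 0.52 and Iigp1 from -0.45 to 2.69. Loxl1 changed sign to -0.1 without WT replicate 5, -0.1 in the 12 WT libraries, -0.13 with the block and without that library and -0.08 by voom, and Loxl3 to -0.08, -0.08, -0.12 and -0.07. Loxl4 became -0.01 without WT-BAPN replicate 7, and Iigp1 -0.45 without WT-BAPN replicate 2 and -0.41 by DESeq2. The cause was not tested.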

Other observations

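Genes outside the described lists, named after their values were seen, are given as values. All 8 subunits of the CCT chaperonin, which folds actin and tubulin, had log2 values below 0 on BAPN. Cct3 (-0.97 ± 0.21, edgeR adjusted p = 0.0147), Cct7 (-0.94 ± 0.21, edgeR adjusted p = 0.017) and Cct6a (-0.58 ± 0.14, edgeR adjusted p = 0.0208) fell in both fits and in all 13 fits without 1 library. Cct5 had -0.66, Cct4 -0.53, Cct2 -0.36, Tcp1 -0.36 and Cct8 -0.33, and none of these 5 was called with all libraries. WT-BAPN replicate 7 was the highest of its group for all 8.

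Of 78 tested genes of the homologous recombination term 11 rose, with a median log2 change of 0.12 over the term, and a few repair genes are given here. Rad54b lay at 0 to 0.4 CPM in WT and 0.207 to 1.93 CPM in WT-BAPN (2.64 ± 0.55, edgeR adjusted p = 0.0144), but 35.8% of its exonic bases lie under Fsbp on the same strand, so its count is uncertain. Brca2 lay at 1.13 to 2.46 and 1.81 to 5.45 CPM (1.19 ± 0.27, edgeR adjusted p = 0.0183). Brca1 had 2.22 ± 0.54 (edgeR adjusted p = 0.0239) and lost its call without WT replicate 1 or WT-BAPN replicate 5. Among falls, Csf3, a granulocyte growth factor, lay at 0.599 to 1.58 and 0 to 0.283 CPM (-2.98 ± 0.7, edgeR adjusted p = 0.0208), and Adcy1, an adenylyl cyclase, at 2.74 to 7.38 and 0.451 to 1.83 CPM (-1.73 ± 0.4, edgeR adjusted p = 0.0206), both without overlap. The transcription factor Tbx2 lay at 11.8 to 35.6 and 4.24 to 11.3 CPM (-1.06 ± 0.26, edgeR adjusted p = 0.0232), without overlap, and Flnc, which encodes filamin C, at 340 to 927 and 141 to 342 CPM (-1.45 ± 0.33, edgeR adjusted p = 0.0183). Each of these 4 held in all 13 fits.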
